A study of Mus musculus with 6 samples.

Results

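Ddc encodes aromatic L-amino acid decarboxylase, the enzyme that turns L-DOPA into dopamine and 5-hydroxytryptophan into serotonin. It was examined here with 9 other genes of monoamine synthesis, transport and breakdown (Th, Tph1, Tph2, Gch1, Dbh, Slc18a2, Slc6a4, Maoa and Maob) in cervical spinal cord of mouse embryos. The question was whether Ddc differed alone or together with the genes that act before and after it. Ddc was chosen by its high values in the arrays labelled knockout, so its difference is a description and carries no test. The other 9 were chosen by pathway, with earlier results of these arrays known. Each of the 10 genes was represented by 1 probe set carrying a single gene symbol, out of 28815 probe sets and 19920 genes with a complete probe set.

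The tissue was cervical cord at embryonic day 11.5, from which the dorsal cord and the floor plate had been left out. Total RNA was amplified and hybridised to expression arrays, 3 from embryos labelled Nkx2.9 knockout and 3 from embryos labelled wild type, lettered A, B and C in each group. Strain, sex, the design of the knockout allele and any pooling of embryos were not given in the labels, so p-values measure only the spread between these arrays. The study sought effectors that act downstream of the homeodomain factor Nkx2.9 while spinal accessory motor neurons develop.

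Catecholamines are made in a chain. Tyrosine hydroxylase (Th) makes L-DOPA, the decarboxylase makes dopamine, and dopamine beta-hydroxylase (Dbh) makes noradrenaline. Serotonin is made by a tryptophan hydroxylase (Tph1 outside the brain, Tph2 in neurons) followed by the same decarboxylase. Both kinds of hydroxylase need tetrahydrobiopterin, whose synthesis begins with GTP cyclohydrolase (Gch1). The vesicular transporter VMAT2 (Slc18a2) loads monoamines into vesicles, the serotonin transporter (Slc6a4) takes serotonin up again, and the monoamine oxidases (Maoa, Maob) break monoamines down. The adult spinal cord receives most of its monoamines from descending brainstem axons, and cells of the cord itself can also contain the decarboxylase.

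Every value below is a log2 expression value less the probe set's own median over the 6 arrays. A value therefore says how far an array lay above or below the middle of the arrays, and not how strongly a gene was expressed. Since that median is the mean of the middle pair of values, these 2 arrays mirror each other around 0. Whether a transcript was above background in this tissue could not be seen, and the presence of spinal cord markers could not be checked for the same reason. In bulk tissue, fewer cells of a type and less RNA per cell cannot be told apart. Nkx2-9, the targeted gene, was not lower under the knockout label, where it differed from the wild type by 0.18 (SE 0.11; limma adjusted p = 0.812). The position of its probes relative to the deleted part was not known, and the arrays are called by their labels throughout. Xist was high on arrays B and C labelled knockout (4.56 and 4.91) and between -0.25 and 0.11 on the other 4. No wild-type array was high, and the sex of the embryos was not given. For every gene here, the knockout label is therefore partly confounded with whatever goes with high Xist, sex included.

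The promoters of the genes whose groups did not overlap are shown first, so that the start regions of genes with a like difference, Ddc, Th and Slc18a2, can be compared. RefSeq (build GRCm38.p6) gave 11 promoters for 9 of the 10 genes, each running from 250 bases before to 50 bases after a start site, with 2 start sites for Ddc and 2 for Tph1. Capitals mark 3 motifs, none of which overlapped another. They are the core AAGTG bound by NK2-class homeodomain proteins, the class of Nkx2-9; the cAMP response element TGACGTCA, the site of CREB-family factors; and the TATA box letters TATAAA. Each was searched on both strands, so CACTT and TTTATA are AAGTG and TATAAA on the opposite strand.
Ddc, upstream start, chr11:11898095-11898394, minus strand: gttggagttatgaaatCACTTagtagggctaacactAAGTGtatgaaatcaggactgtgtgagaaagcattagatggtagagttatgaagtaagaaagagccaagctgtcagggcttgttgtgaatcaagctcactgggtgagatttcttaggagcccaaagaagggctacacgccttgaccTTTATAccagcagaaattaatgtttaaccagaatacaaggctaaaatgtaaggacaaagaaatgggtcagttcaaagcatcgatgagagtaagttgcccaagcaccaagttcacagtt
Ddc, downstream start, chr11:11890359-11890658, minus strand: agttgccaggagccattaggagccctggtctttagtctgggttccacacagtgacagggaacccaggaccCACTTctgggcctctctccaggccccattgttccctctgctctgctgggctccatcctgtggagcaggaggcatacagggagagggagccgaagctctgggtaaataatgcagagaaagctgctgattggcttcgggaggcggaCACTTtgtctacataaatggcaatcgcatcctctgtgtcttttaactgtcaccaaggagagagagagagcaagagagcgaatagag
Th, chr7:142899946-142900245, minus strand: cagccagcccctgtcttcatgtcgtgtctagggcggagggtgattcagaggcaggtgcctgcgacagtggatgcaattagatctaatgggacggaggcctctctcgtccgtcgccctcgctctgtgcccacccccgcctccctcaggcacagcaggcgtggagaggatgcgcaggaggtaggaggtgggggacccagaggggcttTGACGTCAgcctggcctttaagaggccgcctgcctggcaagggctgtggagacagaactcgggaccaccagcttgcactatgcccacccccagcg
Slc18a2, chr19:59260628-59260927, plus strand: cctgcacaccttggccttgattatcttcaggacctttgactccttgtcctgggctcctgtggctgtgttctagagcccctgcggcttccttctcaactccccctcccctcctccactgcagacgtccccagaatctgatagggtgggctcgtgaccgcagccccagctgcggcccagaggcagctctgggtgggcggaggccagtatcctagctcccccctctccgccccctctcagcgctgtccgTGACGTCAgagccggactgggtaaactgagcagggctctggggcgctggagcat

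Both Ddc promoters held the NK2 core, each at 2 places. At the downstream start site these began 180 and 36 bases before the start, both on the opposite strand. At the upstream start site they began 234 bases before it on the opposite strand and 214 before it on the same strand. In all, 6 of the 11 promoters held AAGTG, as did 46.4% of 32851 mouse promoters of the same length, while the Th and Slc18a2 promoters held none. Those 2 held the cAMP response element instead, beginning 45 bases before the Th start site and 4 bases before the Slc18a2 start site. They were the 2 of the 11 promoters with this element, which 1.79% of all promoters held, and neither Ddc promoter had it. With 11 promoters, a count of 2 cannot be set firmly against that share. Whether the element bears on the differences was not tested. TATAAA was found on the opposite strand 68 bases before the upstream Ddc start, and also in the promoters of Tph2 and Gch1, against 13.6% of all promoters. A match is a run of letters and does not show binding.

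Ddc stood higher on all 3 arrays labelled knockout than on all 3 wild-type arrays. It was at 0.21, 0.22 and 0.43 on arrays A, B and C labelled knockout, and at -0.21, -0.48 and -0.35 on wild-type arrays A, B and C. A gap of 0.42 separated the lowest knockout value from the highest wild-type value. The means were 0.28 ± 0.12 and -0.35 ± 0.14 (SD, n = 3 each), a difference of 0.63 (SE 0.09) or 1.55-fold. The range of Ddc over the arrays, 0.91, was wider than that of 97.6% of the probe sets with all values, for which the median range was 0.23. With each array left out in turn the difference lay between 0.56 and 0.70. Since Ddc was chosen by these same values and its groups are separate, its sign could not turn, and the range is a description. The difference was 0.50 when knockout C and wild-type B, the arrays with high Foxc2 (3.01 and 1.21), a mesenchyme gene, were both left out. These were also the highest and the lowest array of Ddc, so leaving them out had to make its difference smaller.

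**Figure D1:**
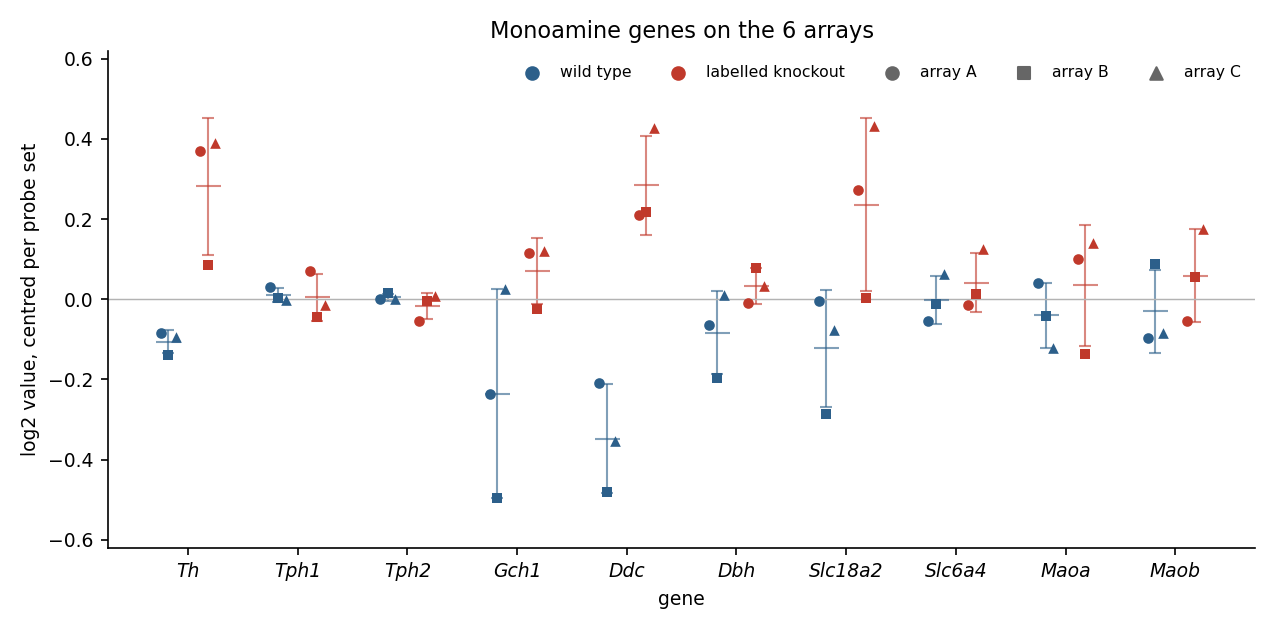
Log2 values, centred per probe set, of the 10 monoamine genes (horizontal axis) on the 3 wild-type arrays (blue) and the 3 arrays labelled knockout (red); the symbol gives the array letter, and the bars the mean and SD of each group. Ddc, Th and Slc18a2 are the genes whose groups do not overlap, and Slc18a2 is separated by a gap of only 0.0087.

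Th, which encodes the enzyme one step before the decarboxylase, was also higher on every array labelled knockout. Its values there were 0.37, 0.08 and 0.39 on arrays A, B and C, against -0.08, -0.14 and -0.09 on the wild-type arrays. The wild-type arrays lay close together (SD 0.03) while array B labelled knockout stood well below A and C. The difference was 0.39 (SE 0.09, 95% interval 0.18 to 0.60), or 1.31-fold. Its unadjusted p in limma was 0.00383, and the p adjusted over all probe sets was 0.812. Left-out arrays gave differences between 0.33 and 0.49, the highest without knockout B.

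Slc18a2 had the third largest difference. It stood at 0.27, 0.0044 and 0.43 on arrays A, B and C labelled knockout and at -0.0044, -0.29 and -0.08 on wild-type A, B and C. The groups were separated by only 0.0087, between knockout B and wild-type A. The difference was 0.36 (SE 0.12, 95% interval 0.06 to 0.66), with an unadjusted p of 0.0265 and an adjusted p of 0.812 in limma. The difference was 0.26 without knockout C, 0.47 without knockout B and 0.18 without knockout C and wild-type B together. Knockout C and wild-type B were the highest and the lowest array of Slc18a2, so leaving out both had to lower its difference. The unadjusted p was above 0.05 without knockout A (0.0726), without knockout C (0.0723), without wild-type B (0.0821) or without wild-type C (0.0502).

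Gch1 followed with overlapping groups. The arrays labelled knockout were at 0.11, -0.02 and 0.12, and wild-type A, B and C at -0.24, -0.50 and 0.02, so that wild-type C lay above knockout B. The difference of 0.31 (SE 0.13, 95% interval -0.0080 to 0.62; unadjusted p = 0.0545, adjusted p = 0.812 in limma) leaned on wild-type B and was 0.18 without that array.

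The remaining 6 genes had smaller differences, all with overlapping groups. Dbh, which turns dopamine into noradrenaline, was at -0.01, 0.08 and 0.03 on the arrays labelled knockout and at -0.06, -0.20 and 0.01 on the wild-type arrays. Its difference was 0.12 (SE 0.06, 95% interval -0.04 to 0.27; adjusted p = 0.812 in limma), and 0.06 without wild-type B. The serotonin hydroxylases varied little: the values of Tph2 lay between -0.05 and 0.02 over all arrays and those of Tph1 between -0.04 and 0.07. Their ranges, 0.07 and 0.11, were exceeded by most probe sets, since only 4.21% and 15.1% of the table had a smaller range. The difference was -0.02 for Tph2 (95% interval -0.12 to 0.07; adjusted p = 0.939 in limma) and -0.0059 for Tph1 (95% interval -0.12 to 0.11; adjusted p = 0.989). These intervals leave out differences of the size seen in Ddc and Th, but without a level the values do not show whether either transcript was present.

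Slc6a4, the other gene of the serotonin branch, stood at -0.01, 0.01 and 0.13 on the arrays labelled knockout and at -0.05, -0.01 and 0.06 on the wild-type arrays. Its difference was 0.04 (95% interval -0.09 to 0.18; adjusted p = 0.908 in limma). Maoa, the oxidase that prefers serotonin and noradrenaline, was at 0.10, -0.14 and 0.14 against 0.04, -0.04 and -0.12, a difference of 0.08 (95% interval -0.13 to 0.28). Maob was at -0.06, 0.06 and 0.18 against -0.10, 0.09 and -0.08, a difference of 0.09 (95% interval -0.10 to 0.28). Both oxidase genes lie on the X chromosome, and neither group was separate from the other for them. When the fit held a term for high Xist (2 arrays), which leaves knockout A to be read against the wild type, Maoa was at 0.14 and Maob at -0.03, while Ddc was at 0.56, Th at 0.48, Slc18a2 at 0.40 and Gch1 at 0.35.

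**Figure D2:**
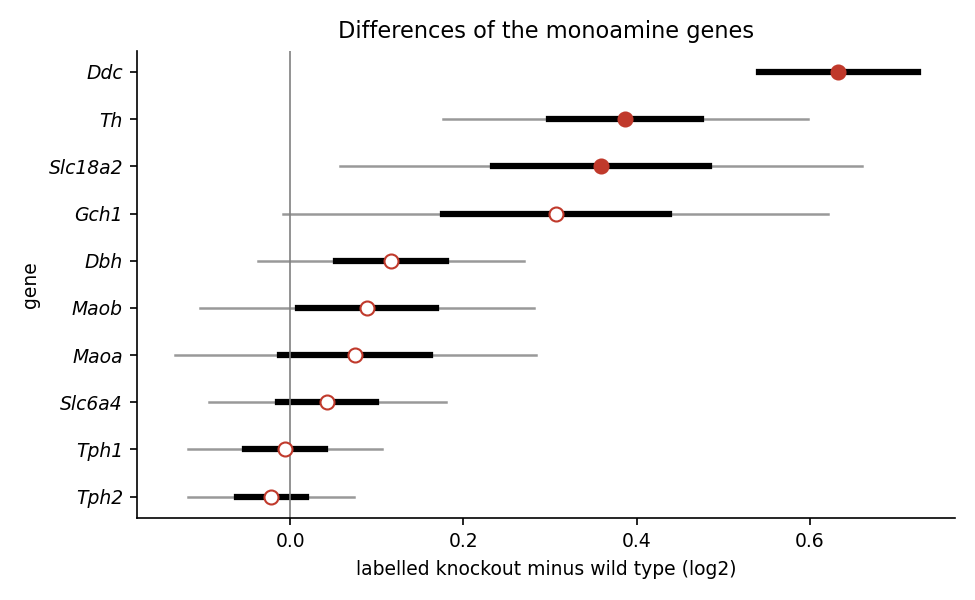
Difference between the arrays labelled knockout and the wild type (log2, horizontal axis) for each monoamine gene (vertical axis): points are differences, black bars 1 SE on either side and grey lines 95% intervals from limma. Filled points mark the 3 genes whose groups do not overlap; Ddc, chosen for its difference, has no interval. Ddc, Th, Slc18a2 and Gch1 lie from 0.31 to 0.63, and the other 6, Dbh among them, from -0.02 to 0.12.

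Most of the other members shared the direction of Ddc, as did most probe sets of the table. Of the other 9 genes, 7 had a higher mean in the knockout-labelled group and 2 a lower mean; the median difference was 0.09, where 55% of all probe sets were higher and the median of the table was 0.0087. Th and Slc18a2 were the 2 of 9 with an unadjusted p under 0.05 in limma, and both were higher; 3.07% of all probe sets were at that p and higher, and 5.57% in either direction. The same 2 of 9 had all knockout arrays above all wild-type arrays, as had 6.68% of the 28791 probe sets with all values. None of the 9 had an adjusted p under 0.05, which 0% of all probe sets reached; the lowest adjusted p in the table was 0.812. With 9 genes, neither the 7 that were higher nor the count of 2 can be set firmly against these backgrounds. The count at an unadjusted p under 0.05 was 1 (Th) without knockout A, without knockout C, without wild-type B and with the Xist term, and 3 without wild-type C, where Dbh and Gch1 passed and Slc18a2 did not.

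The members differed in how closely they followed Ddc over the arrays. Pearson's r with Ddc over the 6 arrays was 0.91 for Th, 0.89 for Slc18a2, 0.76 for Gch1 and 0.73 for Dbh, against 0.50 for Maoa, 0.45 for Slc6a4, 0.43 for Maob, -0.08 for Tph1 and -0.39 for Tph2. These values include the difference between the groups. With each group's mean removed, r with Ddc was 0.82 for Slc18a2, 0.53 for Maoa, 0.46 for Th, 0.43 for Gch1 and 0.41 for Dbh. On the same scale r with Th was 0.88 for Maoa, 0.87 for Slc18a2, 0.64 for Tph1, 0.42 for Gch1 and -0.19 for Dbh. Between Slc18a2 and Maoa it was 0.77 and between Slc18a2 and Dbh 0.22. Pairs of genes that did not follow Ddc reached like sizes, with 0.84 for Tph2 and Maob and -0.87 for Tph1 and Tph2. All genes share the same 6 arrays, so these are descriptions. Array C labelled knockout was the highest of the 6 in 7 of the 10 genes, as it was in 27.1% of all probe sets. Wild-type B was the lowest in 5 of the 10, namely Ddc, Th, Gch1, Dbh and Slc18a2, and in 17.9% of all probe sets.

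Among 2756 named genes whose range over the arrays was at least 0.5 times that of Ddc, Th ranked 22nd and Slc18a2 32nd in Pearson's r with Ddc, while Gch1 ranked 281st. The 6 genes most like Ddc were Odf2 (r = 0.97), a centriole and sperm tail protein; Gas2l3 (0.97), a cytoskeletal linker; Pde3b (0.97), a phosphodiesterase; Dock5 (0.96), an exchange factor for Rac; Plod2 (0.96), a collagen lysyl hydroxylase; and Utp20 (0.96), a ribosome assembly factor. Their differences were smaller than that of Ddc, from 0.25 in Pde3b to 0.49 in Dock5, and all 6 had separate groups. Likeness over 6 arrays in 2 groups largely follows the difference between the groups, which chose Ddc.

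Cofactor, companion and receptor genes differed in both directions. The 4 lists below held 43 genes with a probe set, of which 25 were higher and 18 lower, with a median difference of 0.02; 2 were at an unadjusted p under 0.05 in limma and higher, 2 were at it and lower, and 0 had an adjusted p under 0.05. Of all probe sets 55% were higher, 5.57% were at that p in either direction, and 3.07% were at it and higher, so that counts this small show nothing particular to the lists. Of 7 enzymes that make or recycle tetrahydrobiopterin or the pyridoxal phosphate cofactor, 4 were higher and 3 lower (median 0.0042). Qdpr, which regenerates tetrahydrobiopterin after each hydroxylation, had all arrays labelled knockout below the wild type, opposite to Gch1, at -0.16 (SE 0.06; unadjusted p = 0.0419, adjusted p = 0.812). Among 9 other monoamine and histamine enzymes and transporters 5 were higher and 4 lower (median 0.02). Slc18a1, the other vesicular monoamine transporter, was at -0.12 (SE 0.04; unadjusted p = 0.0284), also opposite to its relative Slc18a2.

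Other decarboxylases that use pyridoxal phosphate, as the Ddc enzyme does, comprised 6 genes, 2 higher and 4 lower (median -0.01). Csad, of taurine synthesis, was at 0.11 (SE 0.04; unadjusted p = 0.0307), and Hdc, the histidine decarboxylase closest in kind to Ddc, at -0.0038 (SE 0.05). Of 22 serotonin, dopamine, adrenergic and trace amine receptor genes, 14 were higher and 8 lower (median 0.03). The dopamine receptor gene Drd2 was at 0.12 (SE 0.04; unadjusted p = 0.0302). Slc18a1, Csad and Drd2 each had an adjusted p of 0.812 in limma over all probe sets.

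**Figure D3:**
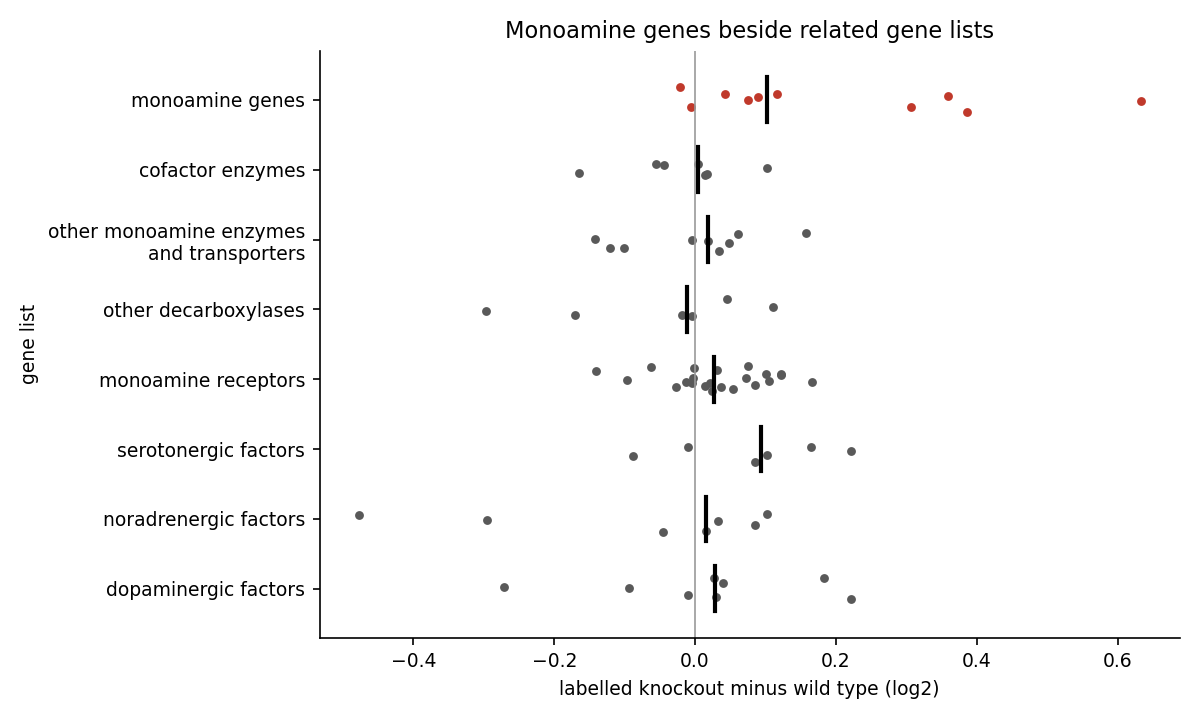
Difference between the arrays labelled knockout and the wild type (log2, horizontal axis) for each gene of the monoamine list (red) and of 7 related lists (grey), with the list median as a black line; vertical jitter within a list has no meaning. Ddc, at 0.63, was chosen for its difference, and the other monoamine genes lie from -0.02 (Tph2) to 0.39 (Th). The related lists run from -0.48 (Tfap2b) to 0.22 (Foxa2).

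Transcription factors that specify monoamine neurons were compared as lists too. Of 6 factors of serotonergic neurons 4 were higher and 2 lower (median 0.09), and of 8 factors of dopaminergic neurons 5 were higher and 3 lower (median 0.03). Foxa2, which stands in both lists and also marks the floor plate, was at 0.02, 0.10 and 0.15 on the arrays labelled knockout and -0.02, -0.22 and -0.14 on the wild-type arrays. Its difference was 0.22 (SE 0.07, unadjusted p = 0.0141). Foxa1, its close relative, was at 0.18 (SE 0.05, unadjusted p = 0.00964), and Gata2, of serotonergic and V2 interneuron precursors, at 0.16 (SE 0.05, unadjusted p = 0.0195). All 3 had separate groups, as had 6.68% of all complete probe sets in that direction, where 3.07% of all probe sets were higher at an unadjusted p under 0.05; all 3 had an adjusted p of 0.812 in limma. Nr4a2 and En1, dopaminergic factors that other cord neurons use as well, were at -0.27 (SE 0.27) and -0.09 (SE 0.08).

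Of 7 factors of noradrenergic and sympathetic neurons 4 were higher and 3 lower (median 0.02), and 0 were at an unadjusted p under 0.05. Insm1 was at 0.10 (SE 0.05, unadjusted p = 0.0945) and Phox2a at 0.02 (SE 0.09). Tfap2b, also a dorsal cord and neural crest factor, was at -0.48 (SE 0.61), with -1.88 on array C labelled knockout. Sympathetic neurons, which lie outside the cord, make Th, Ddc, Dbh and Slc18a2. Apart from Th and Dbh, the sympathetic markers measured were Phox2a and Hand2, at 0.02 (95% interval -0.21 to 0.24) and -0.05 (95% interval -0.19 to 0.10). Their levels over background could not be seen.

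Markers of other cell types differed between arrays, and their part in the differences of the monoamine genes was not tested. Array C labelled knockout had a median of 1.08 over 6 mesenchyme markers and 0.76 over 6 vessel markers, where the other 5 arrays lay between -0.09 and 0.18 and between -0.14 and 0.13. Ddc, Th, Slc18a2 and Gch1 were highest on that array. On knockout A and B the mesenchyme medians were -0.05 and -0.0031, and on wild-type B, where those 4 genes were lowest, 0.18. All 4 floor plate markers measured were higher (median 0.18), where 55% of all probe sets were. They were Foxa2, above, Spon1 at 0.22 (SE 0.09; unadjusted p = 0.0488, adjusted p = 0.812 in limma), Shh at 0.14 and Ntn1 at 0.03. The groups of Shh and Ntn1 overlapped, and 3.07% of all probe sets were higher at an unadjusted p under 0.05. The array medians of the floor plate markers were highest on knockout B (0.19) and lowest on wild-type B (-0.19). On the A and C arrays of both groups they lay between -0.01 and 0.02. All 4 erythroid markers measured were higher as well (median 0.22), with overlapping groups and 0 at an unadjusted p under 0.05 in limma. Their medians on arrays A, B and C were 0.12, -0.07 and 0.07 under the knockout label and -0.31, -0.49 and 0.18 in the wild type. Gch1, too, was lowest on wild-type B and next lowest on wild-type A. The 9 spinal cord markers had a median difference of -0.04, with 3 higher and 6 lower; the neuronal gene Elavl3 was at -0.13 (SE 0.04, unadjusted p = 0.0204).

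**Figure D4:**
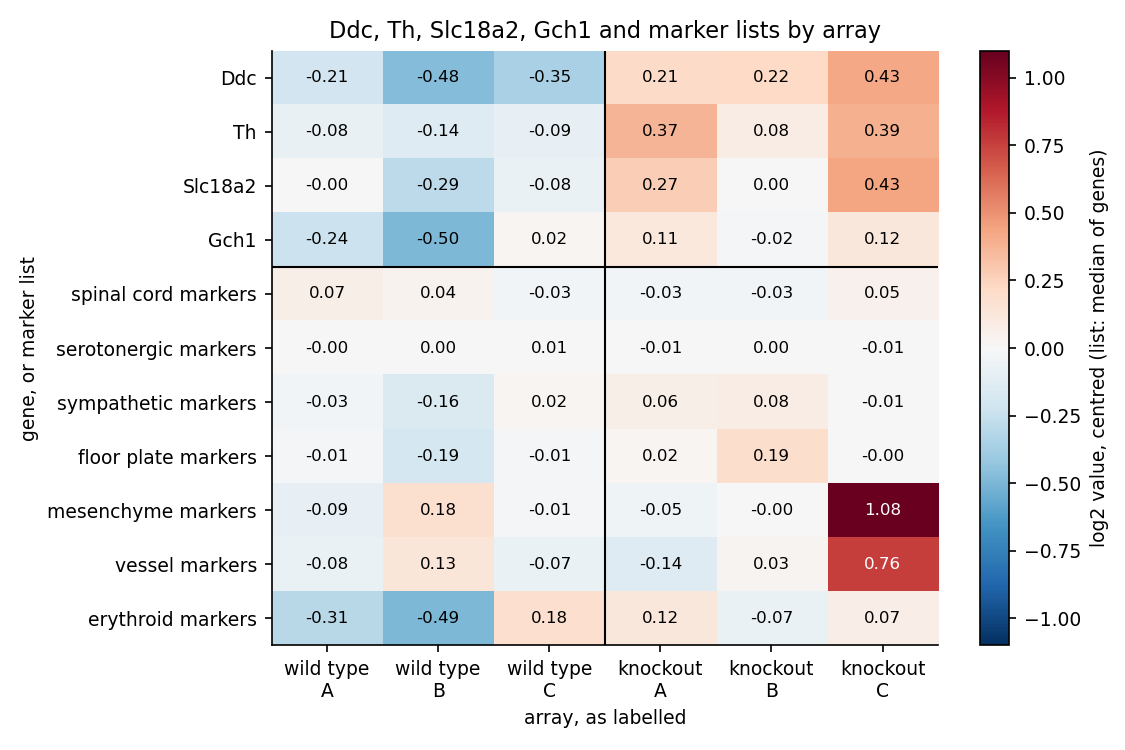
Centred log2 values of Ddc, Th, Slc18a2 and Gch1 (top) and the median over each marker list (below), by array (columns; wild type left, labelled knockout right); red is above and blue below the middle of the arrays. Mesenchyme and vessel markers are highest on array C labelled knockout, and Ddc is above 0 on all 3 arrays labelled knockout; the sympathetic list includes Th.

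The genes next to Ddc were examined for a difference shared along the chromosome. In the order of the RefSeq gene table, the 4 named genes on one side of Ddc were Fignl1, Ikzf1, Spata48 and Zpbp, and those on the other Grb10, Cobl, Pom121l12 and Vstm2a. Of these, 7 had a probe set. Grb10, the imprinted growth factor receptor adaptor directly beside Ddc, was at 0.30, -0.05 and 0.45 on the arrays labelled knockout and 0.05, -0.12 and -0.14 on the wild-type arrays. Its groups overlapped, and the difference was 0.31 (SE 0.13; unadjusted p = 0.0553, adjusted p = 0.812 in limma). Fignl1, on the other side, was at 0.35 (SE 0.25) and Ikzf1 at 0.18 (SE 0.16). Cobl, Spata48 and Zpbp lay between -0.09 and -0.04, and Vstm2a was lower, at -0.94 (SE 0.25, unadjusted p = 0.00789, adjusted p = 0.812 in limma), with separate groups. None of the 7 had higher values on every array labelled knockout, as 6.68% of all complete probe sets had. With 7 genes this count cannot be set against that share.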

How the data were processed

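Total RNA of 6 cervical spinal cord samples was isolated with a small-sample column kit, amplified into biotin-labelled sense-strand cDNA, per the protocols in the labels. The authors made the deposited log2 values with RMA, per the submitters' processing notes; its version and settings are not given in the sources used here, and base 2 was assumed, as RMA gives. Each of the 28791 deposited complete probe sets had a median of 0 within 1e-06, so levels and signal over background were not visible, and the number of arrays limits the precision. Another 24 probe sets lacked a value on wild-type C; none belonged to a gene described here. The platform's annotation gave 1 symbol to 21780 probe sets, several to 1605 and none to 5430. For each gene the complete probe set with the most accessions was used.

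The groups were compared across the whole table with limma 3.58.1 (lmFit, eBayes; R 4.3.3). Genotype was the single term, with Benjamini-Hochberg adjustment over all 28815 probe sets at 0.05. SEs and intervals come from that fit. A run on simulated independent noise checked only that known differences were recovered on average. It did not check the SEs or intervals, and it held no array effects shared by many probe sets. Named genes were the 10 members, Nkx2-9, list members at unadjusted p under 0.05 or else the 2 of lowest p, the 4 named genes on each side of Ddc, and the 6 most like it; Hdc, Nr4a2, En1, Phox2a, Hand2, Xist and markers of other cell types were named after their values were seen. The members and lists were chosen with earlier results of these data known. Alternatives were the letter as replicate block, quantile normalization, median centring, array weights, a robust prior, 1 probe set per gene, a term for high Xist and leaving out each array; leaving out the 2 arrays with high Foxc2 (a mesenchyme gene) was added after seeing the data. A filter on low levels could not be run on centred values. Sequences came from RefSeq tables of GRCm38.p6; the gene table was used for the order of genes. Figures used matplotlib 3.10.9 in Python 3.11.15.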

Additional observations from a re-analysis of the deposited data

How the results depend on the processing

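Ddc, Th, Slc18a2, Gch1, Dbh, Maoa and Tph2 kept their sign under all 14 alternatives, but several of these could not turn it. The replicate block, the robust prior and 1 probe set per gene left each difference as it was. Leaving out arrays cannot turn the sign of Ddc, Th or Slc18a2, whose groups do not overlap. None of the 9 members other than Ddc, which was not tested, had an adjusted p under 0.05 in limma under any alternative. The difference of Ddc ranged from 0.56 to 0.70 with single arrays left out. It was 0.50 without the 2 arrays with high Foxc2, which were also its highest and lowest arrays. Under the other alternatives the difference stayed within its SD. Members with separate groups, Ddc among them, numbered 3 to 5 with an array left out and 5 without the 2 arrays with high Foxc2. Fewer arrays make separation easier. The share of all probe sets was counted only with all arrays (6.68% higher in the knockout label), so these counts have no background beside them. Members other than Ddc at an unadjusted p under 0.05 numbered 2 with all arrays, 1 to 3 with an array left out, 1 without the 2 arrays with high Foxc2 and 1 with the Xist term; the cause was not tested. Signs turned in genes near 0: Maob was at -0.025 and Slc6a4 at -0.012 with the Xist term, Slc6a4 at -0.0046 without the 2 arrays with high Foxc2, and Tph1 at 0.060 with the Xist term, with leave-out values from -0.039 to 0.018. Over the whole table, 1605 probe sets were at an unadjusted p under 0.05, 977 to 2871 with an array left out and 938 without the 2 arrays with high Foxc2. Probe sets at an adjusted p under 0.05 numbered 0, and 5 without knockout A.

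The letters were not stated to pair samples and were not treated as pairs in the main fit. Deviations of same-lettered arrays correlated at 0.16 (A), 0.22 (B) and 0.02 (C). Arrays A and B labelled knockout each correlated best with the wild-type array of their own letter (-0.18 and -0.19 with the other of these letters), a hint from the data and not the design, and C did not (0.03 with wild-type A). With the replicate block, the SE of Slc18a2 was 0.07 and its unadjusted p 0.00368, Gch1 had an unadjusted p of 0.018, 3 members other than Ddc were under 0.05, and 2552 probe sets were, with 0 at an adjusted p under 0.05. The filter on low levels was not run.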
